A study of Mus musculus with 6 samples.

Results

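B cell subsets are told apart by proteins on their surface, and the transcripts of 8 such proteins were compared between wild-type (WT) and GPR174-deficient (KO) follicular B cells. The genes were Fcer2a, Cr2, Cd1d1, Cd9, Cd24a, Cd93, Ms4a1 and Cd38, taken by name from the count table. All 8 were among its 12431 genes, and all 8 were among the 10514 genes tested. Both groups were male mice, Gpr174+/Y for WT and Gpr174-/Y for KO, the latter with tdTomato in place of the Gpr174 coding exon. Follicular B cells were sorted from the spleen, cultured for 1 h in complete RPMI with no added stimulus and sequenced from the 3′ ends of their transcripts, with 3 libraries per genotype. The deficiency is germline, so a KO library reports on cells that both developed and were cultured without the receptor. The question was whether cells in the follicular sort differed in subset makeup between the genotypes. No uncultured library was part of the comparison. Differences present at the sort and those arising in culture therefore cannot be told apart for any marker. The paper reports very few differences between the genotypes in uncultured follicular B cells, measured in other libraries.

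Newly formed B cells leave the bone marrow, enter the spleen as transitional cells and then join either the recirculating follicular pool or the marginal zone, a resident population that faces the blood. Transitional cells carry CD93 and high CD24, and lose CD93 as they mature. Follicular cells gain CD23, and marginal zone cells instead carry high CD21/35, CD1d and CD9 and little CD23. CD20 and CD38 are present on mature B cells of both kinds. A sort on CD23 and CD21/35 rests on this scheme, with CD23 encoded by Fcer2a and both CD21 and CD35 encoded by Cr2 through splicing. CD23 also has more than one transcription start. Reads from the 3′ end do not separate these forms.

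The gate genes are shown here by the DNA just upstream of their RefSeq transcription starts (build GRCm38.p6), because their proteins define the sort. Each run holds 250 bases, 5′ to 3′ in the direction of transcription, with matches to the motifs searched in capitals. Fcer2a is on the minus strand at chr8:3694175-3694424, and 2 further RefSeq starts of the gene are not printed. Cr2 is on the minus strand at chr1:195176720-195176969.
Fcer2a: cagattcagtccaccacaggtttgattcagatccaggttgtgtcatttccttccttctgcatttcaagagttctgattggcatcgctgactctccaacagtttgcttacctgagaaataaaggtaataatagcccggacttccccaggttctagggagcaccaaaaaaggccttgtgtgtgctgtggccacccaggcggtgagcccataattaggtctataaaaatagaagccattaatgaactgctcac
Cr2: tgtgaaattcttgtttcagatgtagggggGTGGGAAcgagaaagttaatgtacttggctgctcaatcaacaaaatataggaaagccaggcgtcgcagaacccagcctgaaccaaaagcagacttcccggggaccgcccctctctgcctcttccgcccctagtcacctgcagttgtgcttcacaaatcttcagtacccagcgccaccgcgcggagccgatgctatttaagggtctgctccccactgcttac
The letters searched, on both strands, were TGACGTCA (the cAMP response element), its core TGACG (which lies within the longer motif) and GTGGGAA (bound by RBPJ, the DNA-binding partner of Notch). None of these letters were in the Fcer2a run. Cr2 held GTGGGAA on the strand shown, starting 221 bases before its start. RefSeq windows were given for 4 of the 8 genes, and GTGGGAA was also found in those of Cd9, at 212 bases before the start, and Cd38, at 45 bases. Of 32851 windows of the same length, 1.55% held TGACGTCA, 17.8% held TGACG and 5.42% held GTGGGAA. A match describes letters and not binding.

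Total counts per library ranged from 8452460 to 10944833. Levels are given as CPM, the reads of a gene relative to all reads of its library, scaled by TMM factors. Gpr174 transcripts were still counted in the KO libraries, at 99.8, 100.2 and 99.8 CPM, against 136, 125 and 121 CPM in WT. A 3′ read can lie outside the replaced coding exon, so this gene is a weak check of the labels. Nothing in the labels says which libraries came from separate mice, and p-values measure the spread between these libraries only.

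None of the 8 markers differed between WT and KO at an adjusted p under 0.05 (edgeR quasi-likelihood test, Benjamini-Hochberg). Across all tested genes 1.82% did. At an unadjusted p under 0.05 there were 2 markers, Fcer2a and Cd93, against 11.9% of all genes. With DESeq2 in place of edgeR both of these were called, where 2.94% of genes were, and with limma-voom only Cd93 was, where 1.64% of genes were. With the replicate number as a block in the edgeR fit both were called, where 281 genes were in place of 191. The median log2 fold change of the 8 (WT over KO) was -0.01, beside -0.00 for all genes, and the median absolute log2 fold change was 0.08, beside 0.15. Of the markers, 3 did not overlap between groups: Cd93 was higher in every WT library, and Fcer2a and Ms4a1 were lower, where 8.43% of all genes were higher without overlap and 8.28% lower.

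**Figure D1:**
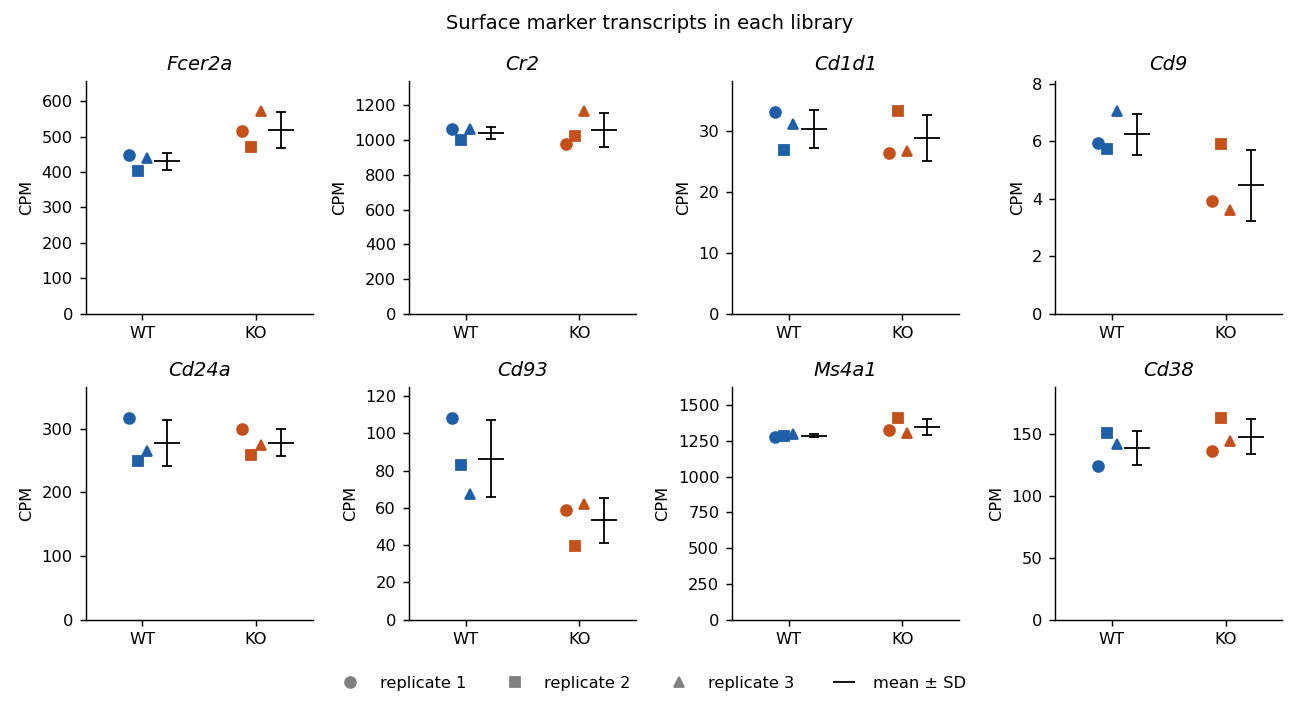
CPM (vertical axes, from 0) of each marker transcript in the 3 WT and 3 KO libraries, with 1 symbol per replicate number and the mean ± SD beside the points. Fcer2a lies at 403 to 448 CPM in WT and 470 to 571 in KO, Cd93 at 67.7 to 108 in WT and 39.7 to 62.1 in KO, and the points of Cr2, Cd1d1, Cd9, Cd24a and Cd38 overlap.

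The positive gate marker had its lower values in the WT libraries. Fcer2a (chromosome 8, 3681737 to 3694175, mm10), which encodes the low-affinity IgE receptor CD23, was at 448, 403 and 438 CPM in WT and at 515, 470 and 571 CPM in KO. The WT libraries were all below the KO libraries. Means were 430 ± 23.4 CPM (SD, n = 3) and 519 ± 50.4 CPM (SD, n = 3), so that WT held 82.9% of the KO level (95% interval 74.6 to 92.0). On the log2 scale the difference was -0.27 ± 0.07 (SE). The unadjusted p was 0.00101 and the adjusted p 0.0526 in the edgeR fit over all genes, so the threshold was narrowly missed. It was lower in WT in all 16 alternative fits and past the threshold in 6 of them, with adjusted p from 0.018 to 0.429. Leaving out KO replicate 2 gave 0.0269 by edgeR, and leaving out KO replicate 3, the highest library, gave 0.429. In bulk RNA, fewer cells of a type and less RNA per cell cannot be told apart. The paper names Fcer2a among genes higher in GPR174-deficient than in WT B cells after a longer culture, in other libraries. It reports that these genes fell in cultured WT cells relative to uncultured ones. Whether the Fcer2a difference here reflects subset makeup or a response in culture was not tested.

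The negative gate marker gave no such difference. Cr2 (chromosome 1, 195136811 to 195176716), which encodes the complement receptors CD21 and CD35, was at 1064, 1003 and 1062 CPM in WT and at 981, 1025 and 1166 CPM in KO. The groups overlapped, with KO holding both the lowest and the highest library. Means were 1043 ± 34.4 CPM (SD, n = 3) and 1057 ± 96.8 CPM (SD, n = 3). WT was at 98.7% of KO, with an interval of 89.7 to 109, and the edgeR adjusted p was 0.949. The labels describe the cells as CD21/35-, yet Cr2 was counted 8414 to 11961 times in every library. Surface protein was not measured in these libraries, and the transcript goes against a reading of that label as absence of Cr2 expression.

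Neither of the other marginal zone markers was called, and Cd9 had few counts and a wide interval. Cd1d1 (chromosome 3, 86995834 to 86999441), an MHC class I-like molecule that presents lipids, was at 33.1, 27.0 and 31.1 CPM in WT and at 26.5, 33.3 and 26.8 CPM in KO. These overlapped, and WT was at 106% of KO with an interval of 84.5 to 132 (edgeR adjusted p 0.893). Its close copy Cd1d2 was not analysed here, and reads shared by the pair make the Cd1d1 count uncertain. Cd9 (chromosome 6, 125460266 to 125494791), a tetraspanin, was counted only 65, 48 and 62 times in WT and 43, 54 and 37 times in KO. That is 5.95, 5.72 and 7.04 CPM against 3.91, 5.89 and 3.61 CPM. KO replicate 2 lay above WT replicate 2, and the means of 6.24 ± 0.70 CPM and 4.47 ± 1.24 CPM (SD, n = 3 each) gave 140% of KO, with an interval of 85.1 to 230 and an edgeR adjusted p of 0.653. Counting error alone amounts to 13.1% of the mean in a WT library and more in a KO library. Between libraries the coefficient of variation was 11.3% in WT and 27.7% in KO.

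The immature markers went apart. Cd93 (chromosome 2, 148436640 to 148443563), which encodes the C-type lectin AA4 that marks transitional cells, was at 108, 83.1 and 67.7 CPM in WT and at 58.6, 39.7 and 62.1 CPM in KO. Each WT library was above each KO library, by a small gap between WT replicate 3 and KO replicate 3. Means were 86.4 ± 20.6 CPM (SD, n = 3) and 53.5 ± 12.1 CPM (SD, n = 3), and WT was at 162% of KO (95% interval 119 to 220). On the log2 scale the difference was 0.69 ± 0.20 (SE), and by edgeR the unadjusted p was 0.00619 and the adjusted p 0.162. DESeq2 gave an adjusted p of 0.00478 and limma-voom one of 0.0214. Over the 16 alternatives it ranged from 0.00478 to 0.425 and passed in 5, and WT was higher in all. Leaving out WT replicate 3 gave 0.0213 by edgeR, and leaving out WT replicate 2 gave 0.425.

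The spread of Cd93 between replicates was wide. Its coefficient of variation was 23.8% in WT and 22.6% in KO, and counting error came to 3.48% and 4.27%. For Fcer2a the spread was 5.44% and 9.71%, with counting error of 1.57% and 1.38%.

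Cd24a (chromosome 10, 43578284 to 43584265), the glycoprotein known as heat stable antigen, gave no such difference between genotypes. It was at 318, 250 and 265 CPM in WT and at 300, 259 and 275 CPM in KO. The groups overlapped, and WT was at 99.7% of KO, with an interval of 88.4 to 113 (edgeR adjusted p 0.994).

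CD93 is also made by monocytes and endothelial cells, and myeloid markers were counted too. Of 12 tested myeloid genes, 11 had a log2 fold change above 0 and none was called, with a median of 0.43. Their summed level was 283 to 332 CPM in WT and 283 to 312 CPM in KO, most of it Cst3, a secreted protease inhibitor, at 201 ± 17.6 CPM in the WT group and 211 ± 21.3 CPM in the KO group (SD, n = 3). No myeloid gene in the table was at 0 in any library. Lyz2, the lysozyme of monocytes and macrophages, was at 3.62 ± 0.81 CPM in the WT group and 2.14 ± 0.61 CPM in the KO group (SD, n = 3, edgeR adjusted p 0.607). C1qb, a complement subunit of macrophages, was at 19.5 ± 4.52 and 13.5 ± 3.58 CPM (SD, n = 3, edgeR adjusted p 0.312). C1qa, another complement subunit on the list, did not differ, at 14.8 ± 1.91 and 14.8 ± 1.22 CPM (SD, n = 3, edgeR adjusted p 0.996). The 5 tested platelet or endothelial genes summed to 240 to 293 CPM in WT and 289 to 296 CPM in KO, most of it Pecam1, an adhesion molecule that B cells express as well. The rest were platelet genes. Cdh5 and Kdr, the endothelial genes of the list, were not in the count table, so an endothelial source was not examined. Gp9, a platelet receptor subunit, was at 0 in WT replicate 2. The part of such cells in the Cd93 difference was not tested.

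The mature markers differed little. Ms4a1 (chromosome 19, 11249675 to 11266241), which encodes CD20, was at 1274, 1285 and 1298 CPM in WT and at 1325, 1413 and 1302 CPM in KO. The groups did not overlap, since WT replicate 3 fell just under KO replicate 3, but the difference was small. WT was at 95.5% of KO (95% interval 87.6 to 104, edgeR adjusted p 0.739). The antisense gene 4930526L06Rik overlaps the 3′ end of Ms4a1, and the use of strand in counting was not stated. Cd38 (chromosome 5, 43868553 to 43912375), an enzyme that consumes NAD, was at 124, 151 and 142 CPM in WT and at 136, 163 and 144 CPM in KO. These overlapped, and WT was at 94.0% of KO (interval 82.3 to 107, edgeR adjusted p 0.782).

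**Figure D2:**
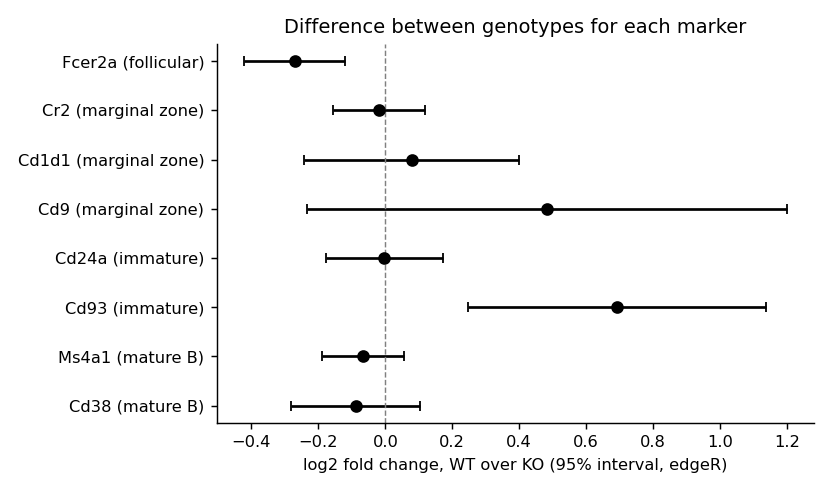
Log2 fold change of WT over KO (horizontal axis) for each marker, with its 95% interval from the edgeR fit as a bar and a dashed line at 0. The intervals of Fcer2a (-0.42 to -0.12) and Cd93 (0.25 to 1.14) do not reach 0 before adjustment over all genes, and the other 6 do.

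Ratios of markers within a library do not depend on library size and are given as a description with no test. The log2 ratio of Fcer2a to Cr2 counts was -1.25, -1.31 and -1.28 in WT and -0.93, -1.12 and -1.03 in KO. The WT libraries were closely grouped and all below KO, with a difference of -0.25. The ratio of Fcer2a to Ms4a1 overlapped between groups, with a difference of -0.20, and so did that of Cr2 to Ms4a1, with 0.05.

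The immature markers divided in the same way against Ms4a1 as they did in CPM. Log2 ratios of Cd93 to Ms4a1 were -3.55, -3.95 and -4.26 in WT and -4.50, -5.15 and -4.39 in KO, a difference of 0.76 with no overlap. Those of Cd24a to Ms4a1 overlapped, with a difference of 0.06. Against Fcer2a, Cd93 differed by 0.96 and Cd9 by 0.78 without overlap, and Cd1d1 by 0.35 with overlap. Fcer2a was itself lower in every WT library, which raises each ratio to it in WT, and Cd9 overlapped in CPM.

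**Figure D3:**
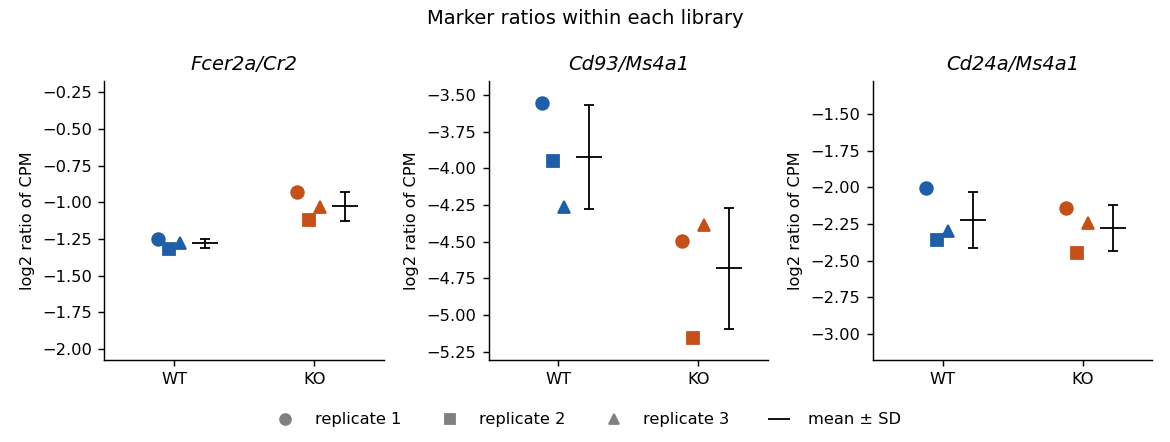
Log2 ratios of 3 pairs of markers (vertical axes, each spanning the same range) in each library, with the mean ± SD of 3 libraries beside the points. Fcer2a/Cr2 and Cd93/Ms4a1 separate the genotypes in opposite directions, by -0.25 and 0.76, and Cd24a/Ms4a1 overlaps.

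Markers of 1 role varied together in some cases and not in others. After removing each genotype's mean, 14 of the 28 pairs of markers had a correlation above 0 across the 6 libraries, from -0.96 for Cd24a and Cd38 to 0.96 for Cd9 and Ms4a1. The gate genes Fcer2a and Cr2 had r = 0.78 and the immature genes Cd24a and Cd93 had r = 0.73. Among marginal zone genes r was 0.79 for Cd1d1 and Cd9, 0.05 for Cr2 and Cd1d1 and -0.28 for Cr2 and Cd9, and for the mature genes Ms4a1 and Cd38 it was 0.68. With 6 libraries and depth shared by all genes, these are descriptions only.

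The comparison was made over 8553 genes averaging at least 50 counts. Those whose log2 CPM most resembled Fcer2a over the 6 libraries were Sh3tc1 (Pearson r = 0.990), Sap30l (0.989) and Npepl1 (0.989). Those nearest Cr2 were Anapc13 (0.986), Caml (0.982) and Galnt12 (0.973). None of these 6 genes was called by edgeR, with adjusted p from 0.241 to 0.944.

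Other genes of the same subsets were read from the fit over all genes. Of 110 genes on 12 lists, 89 were in the table and 80 were tested, and 8 of the 80 were called, beside 1.82% of all genes. The lists were chosen with earlier results of these data known. These shares are therefore a description and do not show that subset genes differed more often than others. The rest of the 110 were not analysed here.

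The marginal zone list had none called of 10 tested, a median of 0.05 on the log2 scale, and a summed level of 1241 to 1392 CPM in WT and 1219 to 1350 CPM in KO. The most abundant of these, S1pr1, the receptor that guides B cells by sphingosine 1-phosphate, was at 578 ± 61.0 CPM in the WT group and 593 ± 34.3 CPM in the KO group (SD, n = 3). Hes1, a target of Notch, was at 147 ± 22.7 and 117 ± 13.1 CPM, with overlap (SD, n = 3, edgeR adjusted p 0.142). Without WT replicate 2 it was called, at an edgeR adjusted p of 0.0174, and it was called under no other alternative. Dtx1, also on the list, was at 201 ± 17.7 and 198 ± 5.26 CPM (SD, n = 3, edgeR adjusted p 0.951). S1pr3 went the other way from Hes1, at 21.7 ± 2.97 and 26.2 ± 0.62 CPM (SD, n = 3, edgeR adjusted p 0.578). Its WT libraries were all below KO, as were those of 8.28% of all genes. Rhoc was at 0 in 2 libraries and was not tested.

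The transitional or immature list had none called of 4 tested by edgeR, with a median of -0.09, although Sox4 and Vpreb3 were called under some alternatives. Its sum was 201 to 255 CPM in WT and 196 to 257 CPM in KO, most of it Vpreb3, a surrogate light chain-like protein, at 193 ± 34.7 and 168 ± 14.3 CPM (SD, n = 3). Sox4, a transcription factor of early B cells, went the other way from Cd93, at 25.0, 35.1 and 25.4 CPM in WT and 62.3, 32.3 and 56.1 CPM in KO. WT replicate 2 lay above KO replicate 2, and the edgeR adjusted p was 0.0963. As with Cd93, the call depended on the tool. DESeq2 gave an adjusted p of 0.0074, limma-voom 0.0383 and edgeR with ordinary dispersions 0.0258. Without KO replicate 2 edgeR gave 0.000331, and over the 16 alternatives the value ran from 0.000331 to 0.334 and passed in 4, with Sox4 lower in WT in all 16. Vpreb3 was called without WT replicate 2 only, at an edgeR adjusted p of 0.0278 against 0.49 with all libraries. The antisense gene Gm26735 overlaps the 3′ end of Sox4.

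The follicular list was split. Of its 6 tested genes 2 were called, both higher in WT, where Fcer2a was lower. Satb1, a chromatin organizer, was at 1190, 1037 and 1150 CPM in WT and 864, 861 and 985 CPM in KO, without overlap and with an edgeR adjusted p of 0.00979. Ccr7, the receptor for the T zone chemokines, was at 1281 ± 43.2 and 1055 ± 54.5 CPM (SD, n = 3, edgeR adjusted p 0.0125). Neither was called without KO replicate 1. Satb1 also lost its call without WT replicate 1, WT replicate 3 or KO replicate 2, with an edgeR adjusted p of up to 0.099, and Ccr7 without KO replicate 3, with up to 0.121. Both were higher in WT in all 16 alternatives. The other 4 had log2 fold changes on both sides of 0, and the list's median was -0.02. The paper names Ccr7 among the genes higher in WT follicular B cells after culture. For 1 h of culture its statement rests on these same libraries, so the call here is not independent of it. It also reports higher Ccr7 in WT after a longer culture, and more surface CCR7 on cultured WT than GPR174-deficient B cells. Whether the Ccr7 call reflects subset makeup or a response in culture was not tested.

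Pan-B genes were called lower in WT in 3 of 12, with a list median of -0.01. Cd79b, a signalling chain of the B cell receptor, was at 762, 720 and 727 CPM in WT and 1015, 927 and 952 CPM in KO, so that WT held 76.4% of KO (edgeR adjusted p 0.000358). Blk, a Src family kinase, was at 199 ± 15.4 and 252 ± 14.6 CPM (SD, n = 3, edgeR adjusted p 0.0158). Cd74, the invariant chain of MHC class II, was at 81.5% of KO with overlap between libraries (edgeR adjusted p 0.0399). Cd79b kept its call in all 16 alternatives. Blk lost it without WT replicate 1, WT replicate 2, KO replicate 1 or KO replicate 3 (edgeR adjusted p up to 0.187), and Cd74 without WT replicate 1, WT replicate 2, KO replicate 2 or KO replicate 3 (up to 0.216). Fcer2a, at 82.9% of KO, and Ms4a1, at 95.5%, were not called.

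Genes of activated or terminal B cell states were also read. The germinal center list had 1 call in 7, Bcl6, a transcriptional repressor, lower in WT at 57.7% of KO (edgeR adjusted p 2.33e-07), although the median of the list was 0.35. The plasma cell list had 2 calls in 6, both lower in WT. These were Irf4, a transcription factor, at 77.1% of KO (edgeR adjusted p 0.0043), and Slamf7, a surface receptor, at 72.2% (edgeR adjusted p 0.00655). The list was split, with 3 of the 6 above 0 and a median of 0.007. Ell2, also on it, was at 127% of KO (edgeR adjusted p 0.11). Its WT libraries were all above KO, as were those of 8.43% of all genes. Bcl6 was called in all 16 alternatives, Irf4 lost its call without WT replicate 1 or KO replicate 3 (edgeR adjusted p up to 0.0696), and Slamf7 lost it without KO replicate 3 (0.0529). The B-1 list had none called in 7, with a sum of 157 to 251 CPM in WT and 160 to 186 CPM in KO, led by Bhlhe40, a transcriptional repressor, in WT at 134% of KO with an edgeR adjusted p of 0.725, and called without WT replicate 1 only, at 0.0015.

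Of the 28 tested genes of non-B cells, none was called. The T cell genes summed to 49.7 to 66.3 CPM in WT and 36.6 to 55.7 CPM in KO. Most of this was Lck, a Src family kinase, at 42.5 ± 12.4 and 37.4 ± 7.73 CPM (SD, n = 3). Cd3d, a chain of the T cell receptor complex, was at 3.27 ± 1.51 and 3.02 ± 0.43 CPM (SD, n = 3). Cd3g was at 0 in KO replicate 1. NK genes summed to 8.74 to 16.1 CPM and 7.55 to 7.63 CPM, led by the granzyme gene Gzma, at 5.60 ± 1.01 and 2.62 ± 0.27 CPM (SD, n = 3, edgeR adjusted p 0.235). Erythroid genes summed to 30.4 to 64.9 CPM and 34.2 to 120 CPM, led by Alas2, the first enzyme of heme synthesis in red cells, with Klf1 at 0 in 3 libraries. The part of such cells in the differences of Fcer2a and Ms4a1 was not tested.

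**Figure D4:**
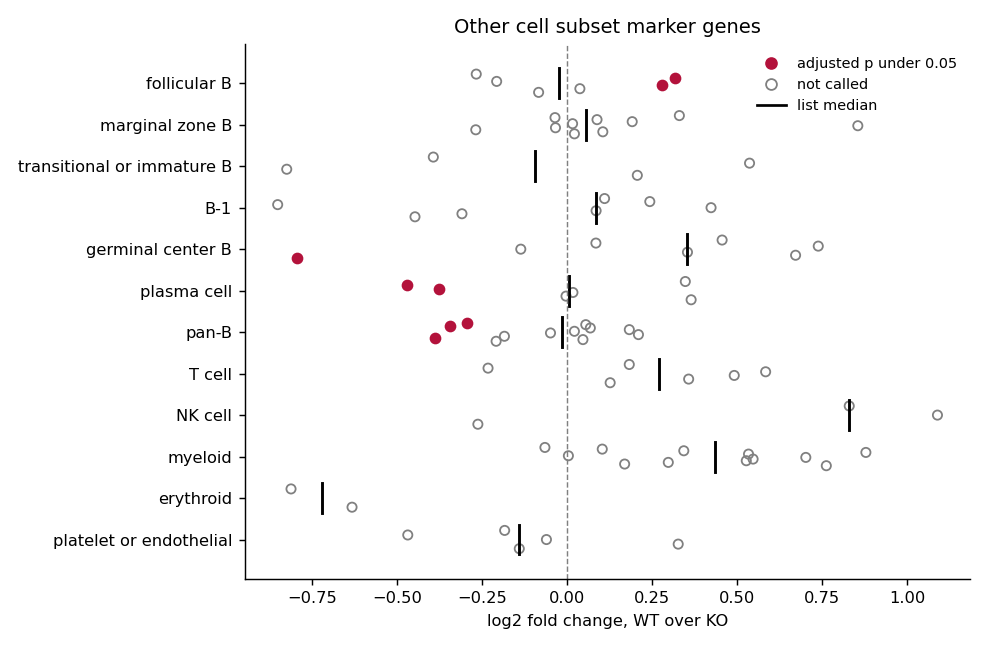
Log2 fold change of WT over KO (horizontal axis) for each tested gene of 12 marker lists (rows), filled where the edgeR adjusted p was under 0.05, with a black bar at each list's median. The 8 called genes are in the follicular (2), germinal center (1), plasma cell (2) and pan-B (3) lists, and none is in the marginal zone, transitional or B-1 lists.

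The direction of Fcer2a and of Cd93 held in all 16 alternatives. The call changed with the tool, the scaling, the filter, the dispersions, the replicate block and the libraries used. Fcer2a ranged in log2 fold change from -0.34 to -0.20 over the 16 alternatives and Cd93 from 0.49 to 0.84. The 6 markers other than these were called under none of the 16.

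**Figure D5:**
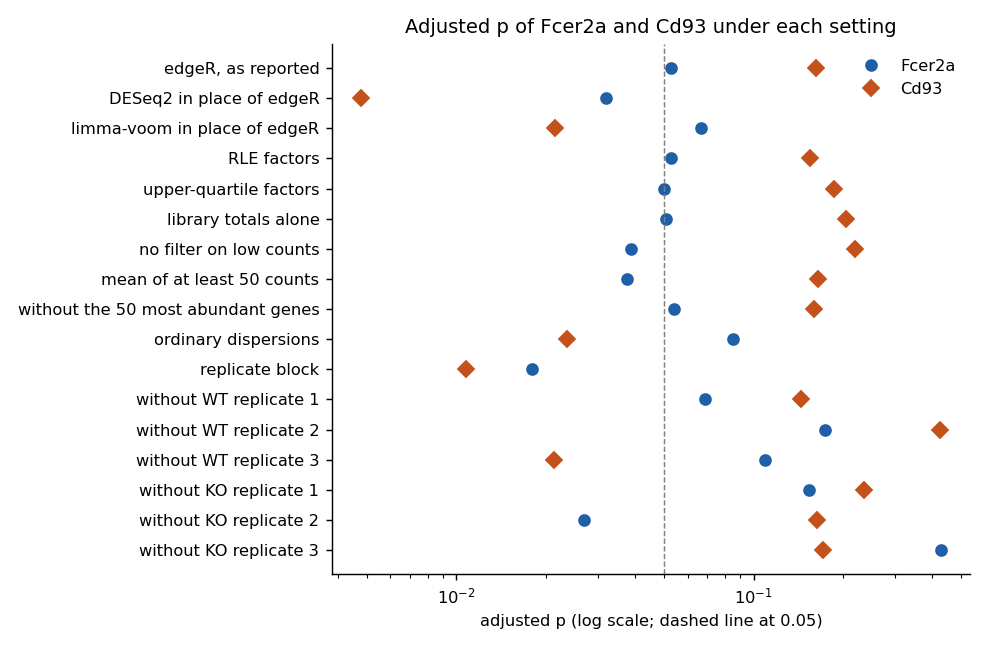
Adjusted p of Fcer2a (circles) and Cd93 (diamonds) on a log axis, for the edgeR fit reported and for each of 16 alternatives (rows), with a dashed line at 0.05. Fcer2a lies on either side of the line within 0.018 to 0.429 and Cd93 within 0.00478 to 0.425.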

How the data were processed

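RNA of sorted splenic follicular B cells was measured in 6 libraries, 3 WT and 3 KO, grouped by sample title. The authors used a 3′ end kit (QuantSeq), aligned to mm10 with STAR and obtained gene counts from HTSeq. Tool versions, the annotation and the strand setting are not given in the sources used here. Whole-number counts without normalization were deposited. The smallest row total was 10 counts, and 0 sample columns were left unused. The paper mentions no molecular identifiers, so counting errors are taken to cover reads only.

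Low counts were removed by edgeR's filterByExpr (edgeR 4.0.16 under R 4.3.3). Libraries were scaled by TMM factors (0.993 to 1.01) and compared by the quasi-likelihood F test with robust dispersions, two-sided, at a Benjamini-Hochberg adjusted p of 0.05 over all tested genes. Fold changes are WT over KO. SE is the absolute log2 fold change over the square root of F, and 95% intervals are not adjusted. Likeness to Fcer2a and Cr2 used log2(CPM + 0.1). Replicates differed by a chi-square per degree of freedom of 6.89 to 10.9, so none was a copy. The test was checked on simulated counts.

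The markers and lists were chosen with earlier results of these data known. Named were the 8 markers, list genes with an adjusted p under 0.05, the most abundant gene of each list of other cells, and the 3 genes nearest Fcer2a and Cr2. Chosen after their values were seen were Sox4, Vpreb3, Hes1, Dtx1, S1pr1, S1pr3, Bhlhe40, Rhoc, Lyz2, C1qa, C1qb, Cd3d, Ell2, Btla, Icosl, and the genes named at 0. The 16 alternatives swapped the tool (DESeq2 1.42.0, which the study used, or limma-voom, limma 3.58.1), the scaling (RLE, upper-quartile or none), the filter (none, or a mean of 50 counts or more), the genes (dropping the top 50 by abundance) or the dispersions (ordinary), added the replicate number as a block, or left out each library. Gene positions come from GENCODE (mm10) and upstream sequences from RefSeq.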

Additional observations from a re-analysis of the deposited data

How the results depend on the processing

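Of the 128 values of the 8 markers under alternatives, 112 kept both direction and side of the threshold, 11 gained a call (6 for Fcer2a, 5 for Cd93) and 5 reversed. The reversals came from leaving out 1 library, in markers near 0: Cr2 ranged from -0.070 to 0.056 (log2, above 0 without WT replicate 2 or KO replicate 3) and Cd24a from -0.11 to 0.065 (above 0 without WT replicate 2, WT replicate 3 or KO replicate 1). The count of markers called, 0 by edgeR, was 2 with DESeq2, and 1 with limma-voom, upper-quartile factors, no filter, a mean of at least 50 counts or ordinary dispersions. It was 0 to 1 when each library was left out (Cd93 without WT replicate 3, Fcer2a without KO replicate 2). Genes called overall numbered 191, and 91 to 183 without 1 library, with 91 without KO replicate 3 and 113 without KO replicate 2. Calls on the lists numbered 8, and 3 to 8 without 1 library, with 3 without KO replicate 3 and 5 without WT replicate 1 or KO replicate 1. Which genes these were also changed: Bhlhe40 was gained without WT replicate 1, Hes1 and Vpreb3 without WT replicate 2, and Sox4 without KO replicate 2, with DESeq2, limma-voom or ordinary dispersions. Cd79b and Bcl6 were called in all 16 fits. A fit with 1 library fewer has less power. The Fcer2a to Cr2 difference ranged from -0.30 to -0.20. Same-numbered libraries correlated at 0.05, 0.01 and 0.04, and each library correlated best with its own number. Correlations this small do not decide whether the libraries were paired. The numbers were not taken as pairs in the reported fit. With the replicate block 281 genes, 9 list genes and 2 markers (Fcer2a and Cd93) were called.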
